A study of Mus musculus with 2 samples.

Results

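Red cell progenitors isolated from the mouse fetal liver by fluorescence-activated cell sorting (FACS) were compared with progenitors isolated on a magnet, at 2 stages of maturation. Among cells already bound to make red cells, the burst-forming unit (BFU-E) comes first and gives rise to the colony-forming unit (CFU-E), which lies closer to the first hemoglobin-making cells. The FACS side held the pools labelled FACS BFU-E and FACS CFU-E, and the magnet side the pools labelled PE-low and PE-high. The labels name a magnet method but do not define these pools further, and they were taken to be its fractions. FACS BFU-E was paired with PE-low (called the early stage here) and FACS CFU-E with PE-high (the late stage). Of 902 cells that carried the name of 1 of these pools, 690 were used, out of 904 cells in their library and 3357 in the series.

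The livers came from C57BL/6 embryos at E14.5, and the labels describe cells selected for low CD71 and CD24. Transcripts of both antigens were higher in the late pools than in the early ones (values below). How far the selection held in each pool was not tested. All 4 pools were marked with hashing antibodies and run together in 1 library with a 10x 3' version 3 kit. A 3' kit reads the end of each transcript and counts molecules by unique molecular identifiers (UMIs). How many embryos went into a pool is not given here, and each pool is 1 sample, so there was 1 pool per stage and method and 2 pools a side. The labels also describe growth for 10 days with 100 uM dexamethasone, a glucocorticoid, or with methanol, and whether it applied to these cells is not stated. A second library, of CITE-seq cells (cells stained with antibodies that carry a sequence tag), served only as a measure of stage, through its pools named CS BFUE and CS CFUE.

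Cells were chosen by their own transcripts. A cell was used with under 5 UMIs of Mpo (the myeloperoxidase of granulocyte precursors), under 3 UMIs of the monocyte genes Ly86, Csf1r and Ccr2 together, and under 20 UMIs per 10000 of the adult globin genes Hba-a1, Hba-a2, Hbb-bs and Hbb-bt together. These limits kept 156 of 233 cells in FACS BFU-E and 161 of 167 in FACS CFU-E, and 156 of 208 and 217 of 294 in their magnet partners. With both early pools first, and FACS before magnet in each pair, the Mpo limit removed 75, 44, 0 and 17 cells, the monocyte limit 22, 26, 0 and 6, and the globin limit 0, 0, 6 and 58, with some cells past more than 1. Few cells lay at the limits: 1 cell had 4 UMIs of Mpo and 1 had 5, both in PE-low. Of the monocyte genes, 8, 2, 0 and 1 cells had 2 UMIs and 2, 1, 0 and 1 had 3, in the same order, so FACS BFU-E had the most cells there, and the globin level nearest the limit was 19.95 inside and 20.75 outside it, both in PE-high. Levels of these 8 genes were therefore fixed by the choice of cells and are not results.

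Each hashing antibody carries a barcode of 15 bases that marks the pool, and these are shown because the whole comparison rests on telling the pools apart. The 4 barcodes differ from each other at 10 to 13 positions.
FACS BFU-E: aacctttgccactgc
FACS CFU-E: gtccgactaatagct
PE-low: caggttgttgtcatt
PE-high: tatttccacccggtc

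Some genes are induced within minutes of a signal that reaches a live cell. Immediate early genes encode transcription factors of the AP-1 family, such as Jun, Jund and Fos, and of the Egr family, whose transcripts appear on a signal without new protein synthesis and decay fast. Feedback genes act against the same signals: Nfkbia encodes the inhibitor that holds NF-kappaB in the cytoplasm, Dusp1 a phosphatase of MAP kinases, and Zfp36 a protein that marks such transcripts for decay. The red cell programme runs on a slower scale, with genes of early progenitors giving way to genes of heme, iron and membrane proteins.

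The sequences upstream of 4 genes of this kind are shown because each was higher in both FACS pools and holds 1 of the elements searched for, and they were picked after their values were seen. Each is the 250 bases before the start of the gene in the RefSeq annotation of GRCm38.p6, all on the minus strand: Jun at chr4:95052223-95052472, Nfkbia at chr12:55492648-55492897, Dusp1 at chr17:26508473-26508722 and Btg2 at chr1:134079156-134079405. Capitals mark, in Jun, the element TGACATCA known from its promoter, in Nfkbia a match to the kappaB site, and in Dusp1 and Btg2 the cyclic AMP response element (CRE) TGACGTCA.
Jun: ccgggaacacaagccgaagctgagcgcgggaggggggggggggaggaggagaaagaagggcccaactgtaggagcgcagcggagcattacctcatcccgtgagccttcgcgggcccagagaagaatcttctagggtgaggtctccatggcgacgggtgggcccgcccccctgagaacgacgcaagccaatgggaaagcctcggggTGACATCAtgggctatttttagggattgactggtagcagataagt
Nfkbia: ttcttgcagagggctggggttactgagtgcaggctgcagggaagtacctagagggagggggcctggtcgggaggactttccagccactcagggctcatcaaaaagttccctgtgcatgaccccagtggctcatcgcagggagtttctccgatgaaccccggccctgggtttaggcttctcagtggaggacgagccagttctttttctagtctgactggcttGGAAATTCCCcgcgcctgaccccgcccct
Dusp1: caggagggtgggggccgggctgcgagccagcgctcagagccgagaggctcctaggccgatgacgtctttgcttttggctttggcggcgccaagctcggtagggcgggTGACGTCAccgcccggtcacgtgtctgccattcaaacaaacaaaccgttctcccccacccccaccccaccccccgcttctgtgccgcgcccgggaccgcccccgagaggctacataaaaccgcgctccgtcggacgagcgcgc
Btg2: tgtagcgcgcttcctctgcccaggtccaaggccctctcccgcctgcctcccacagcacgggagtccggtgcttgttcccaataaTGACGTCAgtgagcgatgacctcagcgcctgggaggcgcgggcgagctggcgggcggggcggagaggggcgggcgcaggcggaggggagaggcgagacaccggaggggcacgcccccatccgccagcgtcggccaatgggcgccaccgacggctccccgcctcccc

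Both strands were searched, and the Jun element differs from the CRE by a single base. Of 32851 RefSeq windows of this length, 1.55% held a CRE, 2.93% the Jun element, 6.75% the AP-1 site TGANTCA, 1.47% a CArG box, 5.93% a kappaB site and 0.466% the heat shock element by its name. Of the 25 genes higher in both FACS pools described next, 18 had a window: 1 held a CRE (Ccnl1), 2 the Jun element (Jun and Clpb), 2 a kappaB site (Nfkbia and 2410006H16Rik), and 0 an AP-1 site, a CArG box or a heat shock element. Among other genes of this kind, the windows of Jund, Junb, Hspa1a and Hspa1b held none of these elements. Those of Fos and Fosb held a kappaB match and that of Zfp36 a CArG box. A match is a description of the letters, and the element TGACATCA was added to the search after the data were seen. Whether any element bears on the levels was not tested.

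Depth was alike on both sides. The pools held 5174112 UMIs (FACS BFU-E), 5421148 (PE-low), 6013157 (FACS CFU-E) and 8469961 (PE-high), at medians of 34069, 35776.5, 38335 and 39917 per cell. Levels are given in UMIs per 1000000 of a pool (CPM) and ratios as FACS over magnet, with 95% exact binomial intervals that cover counting error only. The erythroid identity of the cells was carried by 12 of 12 lineage markers above the level limit (summed 2337 and 4888 CPM in the FACS pools, and 2460 and 4156 in the magnet pools, early before late). Summed markers of hepatocytes lay between 2.99 and 4.24 CPM over the 4 pools. Those of granulocyte precursors (6.98 to 29.0 CPM) and monocytes (2.60 to 10.7) are low by the choice of cells and say nothing more about identity. Endothelial and stromal markers summed to 26.1, 101, 1.83 and 3.90 CPM, with both early pools first and FACS before magnet. In the same order, lymphoid markers summed to 19.9, 55.2, 13.6 and 17.7. Markers of megakaryocytes (199, 201, 108 and 120) and of stem and multipotent progenitors (170, 174, 140 and 134) summed to more. The part of all these markers in the results was not tested.

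Few genes differed between the methods in the same direction at both stages. Of 5506 genes with a mean of at least 20 CPM over the 4 pools, 129 (2.34%) were at least 25% higher in the FACS pool at the early stage and 128 (2.32%) at the late stage, and 25 (0.454%) at both. This fixed size, called the size limit here, is not a test. Higher in the magnet pool by that size were 246 (4.47%) at the early stage, 312 (5.67%) at the late stage and 23 (0.418%) at both. The FACS-higher genes of the early stage were thus found again at the late stage in 19.4% of cases, beside 2.32% of all genes. For the magnet-higher genes this share was 9.35%, beside 5.67%, and a like share of them, 9.76%, lay past the limit in the opposite direction at the late stage. Across all genes tested the 2 ratios had a Pearson's r of 0.0947 and a Spearman's rho of 0.107, a description across genes, which are not independent replicates. Inside the size limit at both stages were 4770 genes (86.6%).

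**Figure D1:**
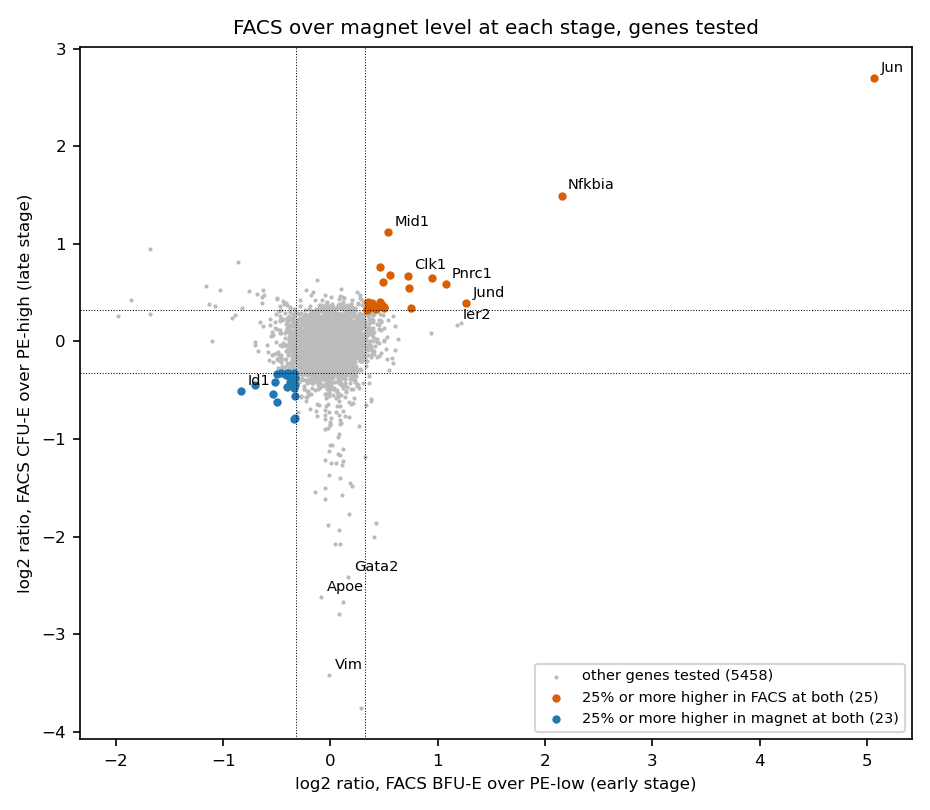
Each point is 1 of the 5506 genes tested, with its log2 ratio of FACS BFU-E over PE-low on the x axis and of FACS CFU-E over PE-high on the y axis; dotted lines mark the size limit (0.32 on the log2 scale). The 25 genes higher in both FACS pools (orange) are led by Jun and Nfkbia, the 23 higher in both magnet pools (blue) lie close to the lines, and genes such as Vim and Apoe moved at the late stage alone.

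The size of the shift was not equal on the 2 sides. At 1.5-fold, 5 genes were higher in both FACS pools (among them Jun, Nfkbia, Pnrc1 and Clk1) and 0 in both magnet pools. At 1.1-fold the counts were 190 (3.45%) and 374 (6.79%). Counting error alone left both intervals clear of 1 for 21 of the 25 and 19 of the 23 genes. The level limit is a mean over all 4 pools, and 12 of the 25 and 6 of the 23 had a mean under it on their lower side, so these entered through their higher side. Jun, Nfkbia, Id1 and Pik3ca were among these. With the level set to a trimmed mean of gene ratios in place of the total, the split of 25 against 23 became 31 against 8, and the magnet count is thus the less settled of the 2.

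Jun, a subunit of AP-1, showed the largest difference of all genes tested. It stood at 179 CPM (early) and 30.6 (late) in the FACS pools, and at 5.35 and 4.72 in the magnet pools. Both FACS pools were above both magnet pools, the early one most. The ratio was 33.5 (23.2 to 50.3) at the early and 6.48 (4.58 to 9.36) at the late stage. The CITE-seq pools, from another library, stood at 20.2 (CS BFUE) and 5.75 (CS CFUE). At least 1 UMI of Jun was seen in 73.1% (65.4 to 79.9) of the early and 41.6% (33.9 to 49.6) of the late FACS cells, and in 15.4% (10.1 to 22.02) and 16.6% (11.9 to 22.2) of the magnet cells. The pools share 1 library and so its free RNA, and their cells' median depths, given above, were higher on the magnet side. The part of free RNA in these shares was not tested. After each cell was thinned to 15000 UMIs the shares were 61.6% and 24.7% on the FACS side and 7.19% and 7.37% on the magnet side. In FACS BFU-E the cell richest in Jun held 6.25% of its UMIs and the top 10% of cells 46.7%, so the level did not come from a single cell.

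Nfkbia and Jund followed. Nfkbia stood at 68.2 and 15.3 CPM at the early stage (ratio 4.46, 3.50 to 5.73) and at 19.6 and 6.97 at the late stage (2.82, 2.04 to 3.92), FACS first. Its share of cells with a UMI was 64.1% and 36.6% on the FACS side and 38.5% and 23.5% on the magnet side, early before late. Jund, the AP-1 subunit with the steadiest expression, stood at 129 and 53.9 CPM (2.40, 2.09 to 2.77) and at 86.8 and 66.0 (1.32, 1.17 to 1.48). Both FACS pools again lay above both magnet pools for Jund, whereas the late FACS pool and the early magnet pool lay close for Nfkbia. Across 151 FACS BFU-E cells thinned to the same depth, Jun had a Spearman's rho of 0.41 with Jund, 0.37 with Nfkbia, 0.38 with Dusp1 and 0.38 with Zfp36, a description over cells of 1 pool. With Ier2 it was 0.31, with Hspa1a 0.24, with Junb 0.22 and with Fos 0.18. Across 158 FACS CFU-E cells it was lower for most of these: 0.25 with Jund, 0.21 with Nfkbia, 0.26 with Hspa1a, 0.17 with Junb, 0.11 with Dusp1, -0.002 with Zfp36, -0.03 with Ier2 and -0.05 with Fos.

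The AP-1 and immediate early list held 23 genes, 22 of them in the table and 5 above the level limit. Of those 5, 2 lay past the size limit in both FACS pools (Jun and Jund), beside 0.454% of all genes. In both magnet pools it was 0, beside 0.418%. Ier2, an immediate early transcription regulator, was higher at the early stage, at 85.8 against 38.0 CPM (2.26, 1.91 to 2.68), and stood at 28.3 against 25.1 at the late stage (1.12, 0.914 to 1.38). Junb, another AP-1 subunit, showed the same pattern with 64.2 against 33.6 and 35.4 against 33.3 CPM. The summed level of the whole list, which needs no level limit, was 573 and 254 CPM in the FACS pools and 196 and 194 in the magnet pools. The early FACS pool stood apart in this sum (ratio 2.92), and the late pair was closer (1.31).

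Several genes of this kind were below the level limit and were chosen after their values were seen. Fos, the partner of Jun in AP-1, had 92 UMIs in FACS BFU-E and 1 in PE-low (17.8 against 0.184 CPM, ratio 96.4, 16.9 to 3848), and 14 and 1 at the late stage. Of the 14 late UMIs 64.3% were in 1 cell. Hspa1a, the inducible chaperone of the heat shock response, stood at 42.9 against 2.95 CPM and 14.1 against 1.53, and its near-identical copy Hspa1b at 25.9 against 0.922 and 5.49 against 0.945. How reads were split between these copies is uncertain. Dusp1 stood at 22.2 against 4.61 and 8.81 against 4.96 CPM. Btg2, an antiproliferative early gene, was at 18.6 against 0.922 at the early stage and 9.15 against 6.38 at the late stage. Zfp36 was at 12.9 against 1.29 and 1.497 against 1.42, and Egr1 at 16.4 against 3.50 and 0.665 against 1.65. Late Fos thus rests on few cells: 4 of 161 FACS CFU-E cells held a UMI (2.48%, 0.681 to 6.24) and 1 of 217 PE-high cells (0.461%, 0.0117 to 2.54), and these intervals overlap. Hspa1a was found in 25.6% and 20.5% of the FACS cells and in 7.69% and 5.99% of the magnet cells, early before late. These values are descriptions of genes picked for their size. Of the list of mRNA decay and phosphatase feedback genes, 3 were above the level limit, and 0 lay past the size limit in both pools of a side. Their median log2 ratio was 0.12 at the early and -0.17 at the late stage. The whole list summed to 411 and 219 CPM in the FACS pools and 314 and 233 in the magnet pools, early before late.

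Among genes above the level limit, the other stress lists lay near the level of all genes. Hspa1a and Hspa1b, described above, were below that limit and are not counted here. Of 12 inducible heat shock genes above the level limit, 0 lay past the size limit in both pools of a side, with a median log2 ratio of -0.07 beside -0.03 over all genes. Dnajb1, a co-chaperone, had the largest ratio of them, at 96.2 against 77.3 and 109 against 96.2 CPM. Of 20 genes of the unfolded protein and integrated stress response, 0 lay past it at both stages (median -0.05). Ppp1r15a, which restores translation after stress, stood at 24.9 against 10.7 CPM at the early stage and 24.3 against 21.3 at the late stage. The p53 targets (0 of 7, median -0.04), the oxidative stress genes and metallothioneins (0 of 18, -0.01) and the hypoxia and glycolysis genes (0 of 18, -0.03) lay at the level of all genes. The same held for 6 glucocorticoid targets (0 of 6, median -0.03).

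NF-kappaB feedback was represented by Nfkbia alone. Of 4 genes above the limit, the others were Nfkbib, a second inhibitor (53.1 against 46.5 and 48.6 against 46.4 CPM), the subunit gene Nfkb1 (46.0 against 44.8 and 25.6 against 27.6), and Rela, the activating subunit (33.4 against 41.9 and 41.1 against 45.7).

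**Figure D2:**
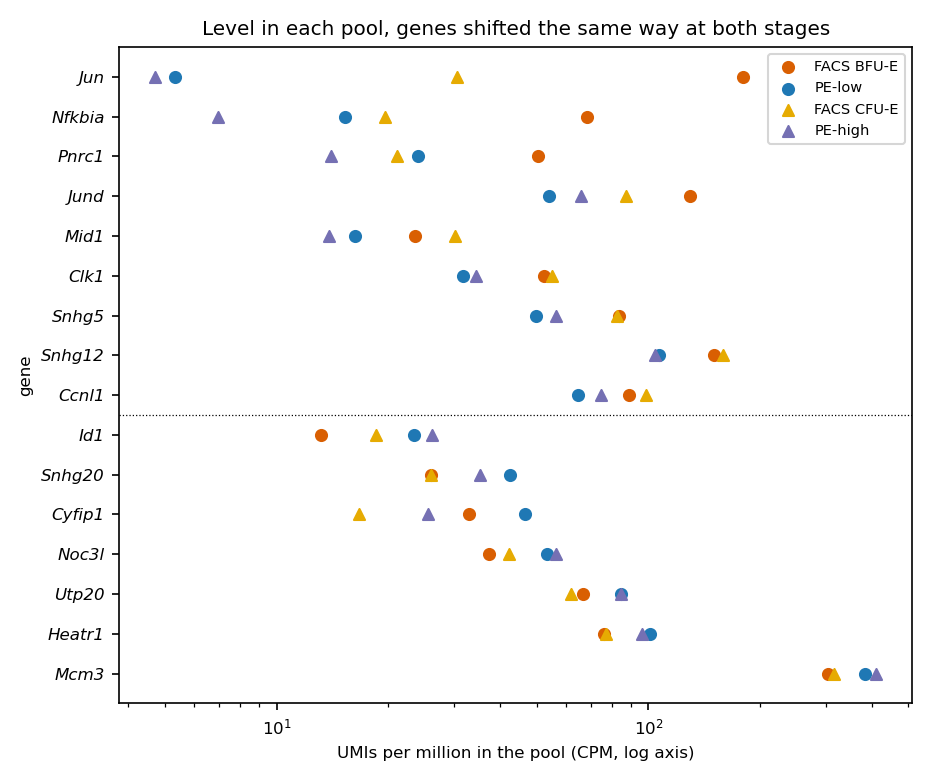
Levels in CPM (log axis) of 16 genes in FACS BFU-E and PE-low (circles) and in FACS CFU-E and PE-high (triangles), 9 higher in the FACS pools above the dotted line and 7 higher in the magnet pools below it. Jun spans from 4.72 in PE-high to 179 in FACS BFU-E, while Clk1, Snhg5 and Snhg12 have both FACS pools above both magnet pools.

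A second group of FACS-higher genes moved by a like amount at both stages. Clk1, a kinase that phosphorylates SR splicing factors, stood at 52.4 against 31.7 CPM at the early stage and 55.05 against 34.5 at the late stage, FACS first, with ratios of 1.65 (1.36 to 2.01) and 1.60 (1.36 to 1.88). Snhg5, a long RNA whose introns hold small nucleolar RNAs (snoRNAs), stood at 83.1 against 49.99 and 82.5 against 56.4 CPM (1.66, 1.42 to 1.94, and 1.46, 1.29 to 1.66). Snhg12, of the same class, stood at 150 and 107 and at 159 and 104 (1.41, 1.26 to 1.57, and 1.53, 1.39 to 1.68). In all 3 genes the FACS pools lay above both magnet pools. Across FACS BFU-E cells their Spearman's rho with Jun was 0.05 for Clk1, 0.06 for Snhg5 and 0.03 for Snhg12, below that of Nfkbia or Jund. Across FACS CFU-E cells it was 0.24, 0.02 and 0.19, the first and last close to that of Nfkbia and Jund there.

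The families of these genes were looked at as lists. Of 14 snoRNA host genes above the limit, 2 lay past the size limit in both FACS pools, beside 0.454% of all genes, and 1, Snhg20, in both magnet pools, beside 0.418% (26.1 and 42.4 CPM early, 25.9 and 35.3 late, FACS first). The median log2 ratio of the family was 0.16, beside -0.03 over all genes, and 8 of 14 were higher in FACS at both stages by any size, beside 20.9% of all genes. Higher in magnet at both stages by any size were 6 of 14, beside 34.9% of all genes. Of 32 CLK and SR splicing genes, Clk1 was the 1 past the limit at both stages (in FACS, beside 0.454% of all genes), and the median was 0.01. Rbm25, a splicing regulator on the same list, stood at 443 against 374 and 408 against 362 CPM. Ccnl1, a cyclin of the splicing machinery, was past the size limit at both stages, at 88.7 against 64.6 and 98.5 against 74.4. The nuclear RNA Malat1 stood at 712 against 569 and 702 against 605 CPM (1.253, 1.19 to 1.31, and 1.16, 1.11 to 1.21).

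Signs of RNA quality were close on the 2 sides. Transcripts of mitochondrial DNA took 2.78% and 3.596% of UMIs in the FACS pools and 2.75% and 3.44% in the magnet pools, early before late. Cytosolic ribosomal protein transcripts took 23.1% and 22.2% on the FACS side and 22.6% and 21.5% on the magnet side. Of 85 ribosomal protein genes 54 were higher in FACS at both stages by any size, beside 20.9% of all genes, but their median log2 ratio was 0.03 and 0 of them reached the size limit at both stages. Their part in the other differences was not tested.

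Other FACS-higher genes belonged to different pathways. Pnrc1, a nuclear receptor coregulator, stood at 50.4 against 23.98 CPM and 21.1 against 14.0. Mid1, a ubiquitin ligase on microtubules, had a larger shift at the late stage, at 23.6 against 16.2 and 30.1 against 13.8 (1.45, 1.095 to 1.93, and 2.18, 1.72 to 2.77). Gins1, a subunit of the replicative helicase, stood at 47.0 against 27.9 and 43.6 against 34.5. Abl1, a tyrosine kinase, was at 29.2 against 19.9 and 21.8 against 13.6, and Cd82, a tetraspanin, at 11.4 against 8.30 and 40.6 against 23.8, with an early interval of 0.916 to 2.07 that holds 1. Hist1h2ab, a replication histone, stood at 65.3 against 50.5 and 61.9 against 48.4. Aqp1, the water channel of the red cell membrane, was at 45.8 against 36.2 and 62.9 against 49.8. The other 11 (1810032O08Rik, 5430416N02Rik, Cnp, 2410006H16Rik, Ubxn8, Ptpa, Clpb, Iba57, Lemd2, Tceanc2 and Ccnl1) had mean log2 ratios between 0.33 and 0.43.

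Among the 23 genes higher in both magnet pools, Id1, an inhibitor of basic helix-loop-helix factors, had the largest mean shift. It stood at 13.1 and 18.5 CPM in the FACS pools and at 23.4 and 26.2 in the magnet pools. Id1 lay under the level limit in both FACS pools and so entered through its magnet side. Both magnet pools were above both FACS pools, by 1.78-fold (1.32 to 2.43) at the early and 1.42-fold (1.13 to 1.80) at the late stage. Mcm3, a subunit of the replicative helicase and the most abundant of the 23, stood at 304 against 381 and 316 against 409 CPM (1.255-fold, 1.17 to 1.34, and 1.29-fold, 1.22 to 1.37). The median log2 ratio of 44 S phase genes was -0.03, equal to that of all genes. Of these 44, Mcm3 was the 1 past the size limit in both magnet pools, beside 0.418% of all genes. Its partners in the helicase did not share its size: Mcm4 stood at 129 against 153 and 159 against 192 CPM, while Mcm7 was lower in the magnet pools, at 267 against 223 and 280 against 261. The Mcm7 values were picked out after they were seen.

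Factors of ribosome assembly formed a small subset. Noc3l, which serves the large subunit, stood at 37.3 against 53.5 CPM and 42.1 against 56.3, FACS first (1.43-fold and 1.34-fold higher in magnet). Utp20 and Heatr1, of the small subunit processome, stood at 66.9 against 84.1 and 61.9 against 84.5, and at 76.0 against 101 and 77.0 against 96.3. Of 29 nucleolus and rRNA genes 2 were past the size limit in both magnet pools (Utp20 and Heatr1), beside 0.418% of all genes. By any size, 15 were higher in magnet at both stages, beside 34.9% of all genes. The median log2 ratio of that list was -0.06.

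The remaining genes had mixed roles. Cyfip1, of the WAVE complex that drives actin branching, stood at 32.9 against 46.5 and 16.6 against 25.6 CPM. Ptpn11, the phosphatase SHP2 that acts below Kit, was at 68.2 against 90.6 and 59.2 against 74.97. Btk, a tyrosine kinase of blood cells, was at 35.0 against 44.5 and 28.4 against 37.4, and Pik3ca, the catalytic subunit of a phosphoinositide kinase, at 16.6 against 23.4 and 18.1 against 22.8. Dnmt3a, a DNA methyltransferase, stood at 24.5 against 32.6 and 13.5 against 17.1. The late counting intervals of Dnmt3a and of Pik3ca hold 1. S100a11, a calcium-binding protein, was at 37.5 against 47.2 and 6.15 against 10.6, and Nrgn at 78.9 against 100.0 and 15.3 against 26.6. The other 11 (Pkp4, Zdhhc21, Erlec1, Oxsr1, Dgcr8, Flii, Atp13a2, Snx27, Gt(ROSA)26Sor, Tspan4 and Snhg20) had mean log2 ratios between -0.33 and -0.57.

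**Figure D3:**
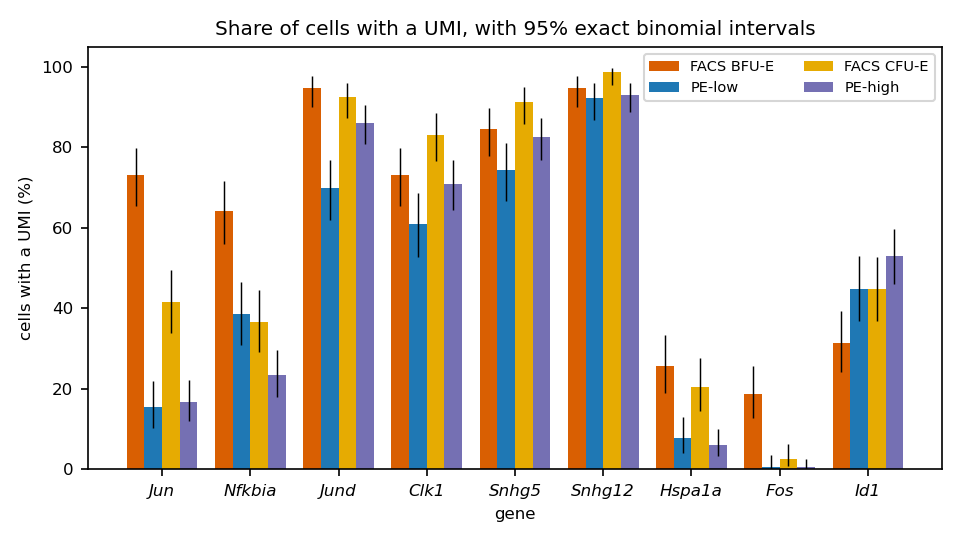
Bars give the share of cells with at least 1 UMI of each of 9 genes in FACS BFU-E, PE-low, FACS CFU-E and PE-high, and lines the 95% exact binomial interval. Jun was found in 73.1% and 41.6% of the FACS cells and in 15.4% and 16.6% of the magnet cells, Snhg12 in over 92% of the cells of every pool, and Id1 in fewer cells of each FACS pool than of its magnet partner.

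Genes of maturation differed between the methods with opposite sign at the 2 stages. By the CITE-seq pools, 162 genes tested were at least 2-fold higher in CS BFUE, and their median log2 FACS to magnet ratio was 0.05 at the early and -0.48 at the late stage. The 174 genes at least 2-fold higher in CS CFUE had medians of -0.23 and 0.22. PE-low thus held more of the later transcripts than FACS BFU-E, and PE-high more of the earlier ones than FACS CFU-E. Spearman's rho of the FACS to magnet ratio with the CITE-seq stage ratio was 0.21 at the early and -0.36 at the late stage over 5506 genes, a description across genes. Of the 25 genes higher in both FACS pools 2 (8.0%) lay past 2-fold in that stage ratio, and of the 23 higher in both magnet pools 5 (21.7%), beside 6.10% of all genes tested. All 5 of the latter (Dnmt3a, S100a11, Cyfip1, Atp13a2 and Nrgn) were higher in CS BFUE, as were 2.94% of all genes tested. The globin limit removed 58 cells of PE-high and 6 of FACS CFU-E, which bears on late values of later genes. With all cells the medians were 0.07 and -0.53 for the CS BFUE genes and -0.24 and 0.13 for the CS CFUE genes, early before late.

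Vim and Apoe show this late difference. Vim, the intermediate filament protein vimentin, stood at 424 CPM in FACS BFU-E and 428 in PE-low, but at 2.00 and 21.4 in the late pair (10.7-fold higher in PE-high, 5.98 to 21.1). A UMI of Vim was found in 12 of 161 FACS CFU-E cells and 44 of 217 PE-high cells, and the top 10% of PE-high cells held 87.8% of its UMIs there. Apoe, apolipoprotein E, stood at 825 against 880 CPM early and 10.3 against 63.3 late, FACS first. At the early stage, Cldn13, a claudin of mouse erythroid cells, stood at 14.9 CPM in FACS BFU-E and 32.6 in PE-low, and at the late stage at 208 and 160. Rgcc, a cell cycle regulator, went the same way, with 40.4 and 85.0 early and 529 and 411 late. A UMI of Rgcc was found in 49.4% of FACS BFU-E and 54.5% of PE-low cells, and the top 10% of cells held 47.4% and 59.2% of its UMIs. For Cldn13 the shares of cells were 28.2% and 38.5%, and the top 10% held 58.4% and 59.9%. Much of the early level of both genes thus lay in few cells.

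**Figure D4:**
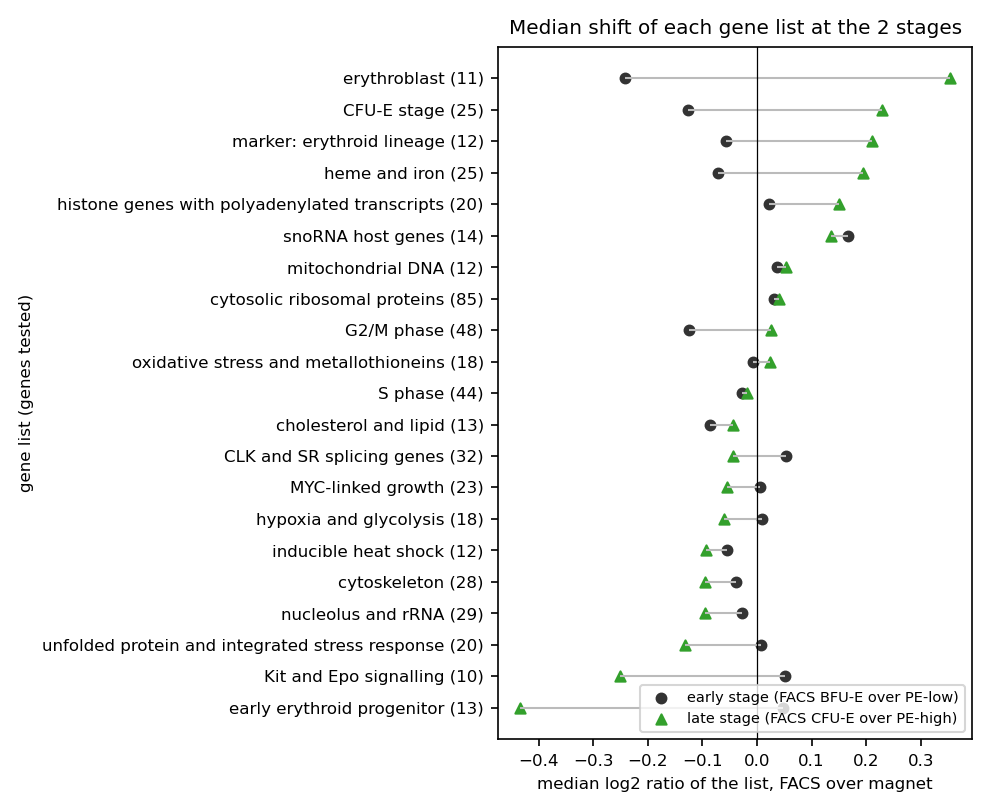
Each row is a gene list with at least 10 genes tested, with its median log2 FACS to magnet ratio at the early stage (circles) and at the late stage (triangles). Erythroblast and CFU-E stage genes lie below 0 at the early and above 0 at the late stage, early erythroid progenitor genes are at 0.05 and -0.43, and snoRNA host genes lie above 0 at both.

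The antigen genes used in isolation followed maturation. Kit, the stem cell factor receptor, stood at 103 against 87.6 CPM early and 43.4 against 55.6 late, FACS first. Tfrc, which encodes CD71, was at 104 against 128 and 325 against 299, and Cd24a at 52.4 against 82.5 and 369 against 321. None of these 3 was past the size limit the same way at both stages.

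Tested across the 4 pools with the stage as a block, limma called 44 genes higher in FACS (0.799%) and 96 higher in magnet (1.74%) at an adjusted p under 0.05. These held 14 of the 25 and 10 of the 23 genes, but not Id1 (limma adjusted p of 0.0587). The fit has 1 residual degree of freedom. The calls thus rest on the spread borrowed from all genes (limma's prior degrees of freedom came out infinite). An exact permutation test of 2 pools a side cannot go below 0.333 when the pairing by stage is ignored. Swaps kept within a stage are fewer, so its lowest p with the pairing would be higher. With all cells of the pools limma called 0 and 0 genes (156 and 247 at an unadjusted p under 0.05), and without the stage block also 0 and 0 (22 and 28). For Jun the mean log2 ratio was 3.88 (5.07 early and 2.70 late). Its limma coefficient, on log2(CPM + 1), was 3.65, with an SE of 0.20 that rests on the borrowed spread. The limma adjusted p of Jun was 8.66e-72. It ranged between 1.34e-119 and 0.9999 over 9 alternative settings and stayed under 0.05 in 6. Of the 96 magnet calls, 18 had opposite signs at the 2 stages, so a call here does not mean a shift at both.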

How the data were processed

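The members, lists and tests were chosen with earlier results of these data known. The deposited table holds natural log values, ln(1 + count per 10000), for each cell and Ensembl gene ID. The authors' tools were Cell Ranger 4.0.0 and Scanpy on build mm10, per the submitters' processing notes. A second deposited table names each cell's pool, by a method not given here, and its 2 principal component columns were not used. No doublet caller was run, the deposited cell names include no doublet class, and whether doublets were removed before deposit is not stated; the deepest cell held 49971 UMIs. UMIs were recovered as multiples of the smallest value in a cell, and all 16419767 nonzero values (100%) were whole within 0.02. UMIs were summed per pool with Python 3.11.15 and scaled to 1000000. Genes entered with a mean of at least 20 CPM. limma 3.58.1 (R 4.3.3) was run on log2(CPM + 1) with stage as a block, a trend on level and Benjamini-Hochberg adjustment, and the steps were tested on simulated data. With no replicate cultures named, p-values do not measure a spread between cultures. They rest on a spread between these 4 pools that is borrowed from all genes, not on that of the single gene. Genes were named from both groups shifted the same way, with the 15 leading ones of each first, plus up to 4 per list by size of ratio, plus Kit, Tfrc and Cd24a. The 39 lists held 892 entries, 871 in the table. Results on a few genes are not reported here.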

Additional observations from a re-analysis of the deposited data

Results flagged for a closer look

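Among lists of at least 10 genes, 2 had medians on opposite sides of 0 at the 2 stages, each by at least 0.1 on the log2 scale. The CFU-E stage list had a median log2 FACS to magnet ratio of -0.13 at the early and 0.23 at the late stage. The erythroblast list had -0.24 and 0.35. The difference between the stages was not tested, since each stage has 1 pool a side. The globin limit bears on the late values, since it removed 58 cells of PE-high and 6 of FACS CFU-E. With all cells the medians were -0.14 and 0.17 for the CFU-E stage list and -0.34 and 0.14 for the erythroblast list, early before late. With cells weighted to equal stage they were -0.11 and 0.08, and -0.20 and 0.14. Those weights evened out the summed level of the CFU-E stage list itself between paired pools. A smaller difference in that list was thus built in and is no separate check. CD24, one of the antigens used in isolation, is encoded by a gene of the erythroblast list.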

How the results depend on the processing

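The alternatives were a level limit of 5 or 50 CPM, a trimmed mean of ratios for scaling, all cells of the pools, a stricter cell filter, cells thinned to 15000 UMIs, cells weighted to equal stage, other size limits, each stage left out, and for limma a pseudocount of 5 CPM and no block. The level limits of 5 and 50 CPM leave each gene's ratio as it was, so they cannot change its direction or size. Under the 5 alternatives of scaling and cells, every one of the 25 and 23 genes kept its direction at both stages. The size was kept by fewer of 1 or both groups in each of these. They were 15 and 7 with all cells, 18 and 14 under the stricter filter, and 14 and 10 after thinning. With cells weighted by stage they were 17 and 15, and with the trimmed mean 25 and 8. Counts of genes higher in both FACS and in both magnet pools were 81 and 105 at 5 CPM, 8 and 5 at 50 CPM, 40 and 55 after thinning, 5 and 0 at 1.5-fold and 190 and 374 at 1.1-fold, and 31 and 8 with the trimmed mean, which moved the median log2 ratio of all genes from -0.03 to -0.004. With 1 stage left out the counts lay between 128 and 129 for FACS and between 246 and 312 for magnet.

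The limma calls were less stable. For FACS and magnet they were 17 and 24 at 50 CPM, 49 and 39 with the trimmed mean, 0 and 0 with all cells (156 and 247 at an unadjusted p under 0.05), 1 and 0 under the stricter filter (165 and 320 unadjusted), 17 and 18 after thinning and 21 and 10 with cells weighted by stage. Without the replicate block, which pairs pools by stage, limma called 0 and 0 (22 and 28 unadjusted). The cause of these losses was not tested. With 1 pool per stage and method, pool and method cannot be told apart.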

Other observations

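The genes shifted the same way also differed in annotation, which was looked at after the data were seen and has no test. The median gene length in RefSeq (GRCm38.p6) was 20.9 kb over 5395 of 5506 genes tested, 15.9 kb over 23 of the 25 genes higher in both FACS pools and 41.3 kb over the 23 higher in both magnet pools. At the 1.1-fold limit it was 15.8 kb over 178 genes and 35.9 kb over 368 genes. Long noncoding RNAs made up 0.760% of annotated genes tested, 17.4% of the FACS group (4 genes) and 8.70% of the magnet group (2 genes). The median level was 30.8 CPM in the FACS group and 34.8 in the magnet group, beside 59.5 over all genes tested.

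The list of histone genes with polyadenylated transcripts had 20 genes tested. Of these, 11 were higher in FACS at both stages by any size, beside 20.9% of all genes, and their median log2 ratio was 0.09 (0.02 with all cells). Hist1h2ae stood at 106 against 70.8 CPM at the early and 98.9 against 82.8 at the late stage, FACS first, and Hist1h2ap at 98.2 against 76.0 and 104 against 85.4. H2afy, a variant histone on the same list, went the other way at the late stage (93.0 against 165 CPM) and stood at 399.7 against 400.1 at the early stage.

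The share of cells with a Y-linked UMI, which marks cells of male embryos, was 60.3% and 61.5% on the FACS side and 55.8% and 68.2% on the magnet side, so the pools drew on both sexes.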
